A study of Homo sapiens with 8 samples.

Results

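ERVK long terminal repeats (LTRs) were the annotation of 4828 of the 125713 mTOR peaks deposited for LNCaP prostate cancer cells. A peak was counted when its detailed annotation named a repeat of class LTR and family ERVK, when it lay on chromosomes 1 to 22, X or Y, and when it was not annotated as a promoter. The last condition removed 0 peaks, because the annotation gives a promoter precedence over a repeat, so LTRs inside promoters are not counted. LNCaP is an established human line that responds to androgen, and mTOR, the growth-control kinase, was immunoprecipitated with its cross-linked DNA. Before treatment, every culture spent 48 h without androgen, in 2% charcoal-stripped serum. The shEV EtOH cells carried the empty hairpin vector and received 0.1% ethanol for 24 h, and the shEV R1881 cells carried the same vector and received 10 nM of the synthetic androgen R1881 for 24 h. The shFoxA1 EtOH and shFoxA1 R1881 cells carried a hairpin against the pioneer factor FoxA1 and received the same treatments. There was 1 immunoprecipitated library per group and therefore no replicate check of any difference. No source used here says whether either set of cells is a single clone. The knockdown itself was not measured, and cell type markers cannot be read from binding data. Fewer cells with mTOR at a site and less mTOR per cell cannot be told apart.

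ERVK elements are remnants of retroviruses that entered the primate germ line, and the family includes the youngest human endogenous retroviruses. A complete provirus has an internal coding part between a pair of LTRs, but most copies have recombined to a solitary LTR. LTRs carry promoter and enhancer sequences, which the host silences through KRAB zinc-finger proteins, TRIM28 and SETDB1, and some have become regulatory elements of nearby genes. The repeat names keep the provirus apart: MER11 names the LTRs of HERVK11 and HERVK11D, MER9 those of HERVK9, LTR3 those of HERVK3, and LTR5, LTR13, LTR14 and LTR22 those of further ERVK proviruses.

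A promoter peak cannot be a member, so an ERVK region reaches a gene start only by extending to it from outside or by merging with a promoter peak. Of the RefSeq start windows, which run from 250 bases before a start into the first transcribed bases, 3 were reached by a peak of an ERVK region, and CYP17A1 was the only coding gene among them. CYP17A1 encodes the steroid 17-alpha-hydroxylase/17,20-lyase of androgen synthesis. It is described because of this overlap, which was seen in the data first. Its MER11A region (hg38 chr10:102837557-102839019) held a peak with a score of 227 centred 1222 bp upstream of the start in shEV EtOH, 275 at 1061 bp in shEV R1881 and 235 at 1149 bp in shFoxA1 EtOH. The shFoxA1 R1881 peak was wider and centred 875 bp upstream with a score of 164, so it was annotated as a promoter and is not one of the 4828. All 4 lists thus had a peak at this LTR, and only the shFoxA1 R1881 peak, 1463 bp wide, reached into the start window. The 250 bases before the CYP17A1 start, from RefSeq on GRCh38.p14 (chr10:102837414-102837663, minus strand), are shown 5′ to 3′ with the 107 bases inside that peak in capitals.

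CYP17A1: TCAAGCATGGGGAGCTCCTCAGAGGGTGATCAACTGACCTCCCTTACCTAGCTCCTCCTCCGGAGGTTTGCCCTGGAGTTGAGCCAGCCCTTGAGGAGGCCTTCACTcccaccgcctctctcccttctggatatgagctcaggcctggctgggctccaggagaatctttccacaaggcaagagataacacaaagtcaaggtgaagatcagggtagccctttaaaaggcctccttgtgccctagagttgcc

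These letters were searched on both strands for the exact palindromic androgen response element, its single arm TGTTCT, the forkhead words TGTTTAC and TGTTTGC, the E-box CACGTG, the AP-1 word TGANTCA and CCAAT, and none was present. Among 35116 stretches of the same length before gene starts, the single arm, which also lies inside the full element, was in 12.4%, TGTTTAC in 2.98%, TGTTTGC in 3.23%, CACGTG in 6.34%, TGANTCA in 6.57%, CCAAT in 32.0% and the full element in 0.00285%. A missing word says only that these letters are not in the window. A second MER11A region lay about 7.2 kb upstream of CYP17A1, with scores of 50, 135, 75 and 122 in shEV EtOH, shEV R1881, shFoxA1 EtOH and shFoxA1 R1881. It too was in all 4 lists. The LTR sequences themselves were not analysed here.

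By list, 1085 of 24948 peaks were ERVK in shEV EtOH (4.35%, 95% Wilson interval 4.10 to 4.61), 1118 of 26074 in shEV R1881 (4.29%, 4.05 to 4.54), 1296 of 35121 in shFoxA1 EtOH (3.69%, 3.5 to 3.89) and 1329 of 39570 in shFoxA1 R1881 (3.36%, 3.19 to 3.54). The intervals cover counting error only, and the depth of the libraries is unknown because no read totals accompany the lists. The share was thus lower in the 2 longer shFoxA1 lists. That order turned when the lists were cut by score to the length of the shortest, where the shares were 4.35, 4.43, 4.73 and 4.63% in the same order. Inputs, the number of copies of each repeat in the genome and the uniqueness of reads in repeats were not analysed here, so the shares show no preference for a repeat. A further 2, 2, 3 and 4 ERVK peaks lay on sequences outside the numbered and sex chromosomes and entered nothing else.

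ERVK peaks were concentrated among the strong peaks of each list. The deposited score, a value of the authors' peak calling that is used here only within a list, had a median of 115, 104, 134 and 132 for ERVK peaks in shEV EtOH, shEV R1881, shFoxA1 EtOH and shFoxA1 R1881, against 58, 58, 66 and 65 for all peaks. The median ERVK peak stood at percentile 75.5, 72.9, 78.9 and 80.4 of its list. ERV1 peaks, another endogenous retrovirus family, stood at 69.1, 64.9, 71.0 and 69.1, and ERVL and MaLR peaks, an older family, at 60.1, 59.7, 63.1 and 64.7. In the highest-scoring 20% of each list, 9.72, 9.07, 9.14 and 8.29% of peaks were ERVK, and in the lowest 20%, 1.48, 1.32, 0.968 and 0.986%. ERV1 and ERVL and MaLR shares also fell with the score, as the plot of family shares by score band shows. Put the other way, 44.7, 42.3, 49.5 and 49.4% of the ERVK peaks lay in the highest-scoring 20% of their list.

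**Figure D1:**
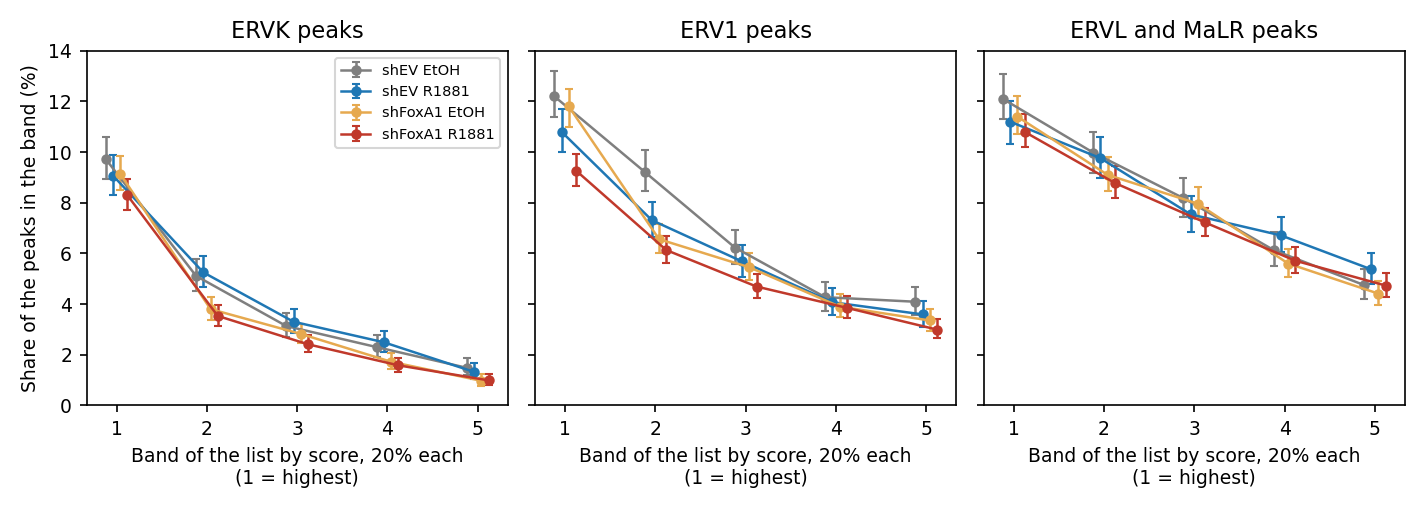
Share of peaks that were ERVK, ERV1, or ERVL and MaLR (percent, points with 95% Wilson intervals, 1 line per library) in each of 5 equal bands of a list by deposited score, where band 1 is the highest. The ERVK share runs from 8.29 to 9.72% in band 1 to 0.968 to 1.48% in the lowest.

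The median ERVK peak was wider than that of all peaks and held somewhat more CpG. Their median width was 534, 533, 552 and 563 bp, against 452, 445, 471 and 470 bp for all peaks. The CpG content of the median ERVK peak was 1.31 to 1.33% over the lists, against 0.697 to 0.758% for ERV1 and 0.536 to 0.574% for ERVL and MaLR. It was 0.867 to 1.04% for all peaks, and 0.920, 0.901, 1.21 and 1.16% for peaks outside these families. The GC content of the median ERVK peak was 44.4 to 44.6%. Between 66.0 and 66.8% of ERVK peaks were intergenic and the others lay in introns, against 44.7 to 49.3% intergenic among all peaks. All peaks include promoter peaks, which ERVK cannot hold, and in place ERVK was near the other retroviral families: in shEV EtOH 66.0% of ERVK, 68.4% of ERV1 and 63.3% of ERVL and MaLR peaks were intergenic. The median distance to the nearest start site was 44754, 38810, 44940 and 40382 bp for ERVK in the 4 lists, and in shEV EtOH 43671 bp for ERV1 and 47934 bp for ERVL and MaLR. Within 50 kb of a start lay 53.1, 56.3, 52.7 and 55.5% of ERVK peaks, against 60.1, 61.5, 63.5 and 64.8% of all peaks, and in shEV EtOH 53.7% of ERV1 and 50.9% of ERVL and MaLR peaks. By chromosome, pooled over the lists, the ERVK share of peaks was 8.49% on X (122 of 1437) and 7.10% on chromosome 4, and 1.64% on chromosome 20. Between 6.45 and 8.58% of ERVK peaks had another ERVK peak within 10 kb.

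MER11 supplied most of the members. Of 38 repeat names, the 4 MER11 names accounted for 809, 802, 947 and 950 peaks, or 74.6, 71.7, 73.1 and 71.5% of the ERVK peaks of each list. MER11A had 379, 388, 445 and 430 peaks, MER11B 186, 177, 205 and 201, MER11C 208, 201, 239 and 263, and MER11D 36, 36, 58 and 56. The subfamilies differed in rank: the median MER11A peak stood at percentile 82.0 to 85.2 and the median MER11B peak at 80.5 to 88.3, whereas MER11C stood at 59.7 to 69.1 and MER11D at 59.7 to 69.1. In each list the MER11A and MER11B medians were above those of MER11C and MER11D.

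LTR14 peaks were few and ranked highest. They numbered 64, 71, 75 and 81, and the median LTR14 peak stood at percentile 88.2, 92.0, 94.1 and 93.1 with a median width of 729, 746, 866 and 853 bp. Between 65.6 and 76.0% of them lay in the highest-scoring 20%. LTR22 had 65, 60, 74 and 58 peaks, MER9 60, 59, 72 and 69, and internal proviral parts 42, 55, 58 and 71. LTR13 had 27, 37, 47 and 42 peaks and stood apart in composition, with a median GC content of 52.9 to 54.5% and a CpG content of 2.86 to 3.22%. The smallest groups were LTR5, with 11, 15, 14 and 24 peaks, and LTR3, with 7, 19, 9 and 34. Both had more peaks in each R1881 list than in the EtOH list of the same hairpin, as did LTR14 and the internal parts. Each R1881 list was also the longer one of its pair. MER9 and LTR3 were among the weaker groups, with medians between percentiles 52.9 and 60.1.

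**Figure D2:**
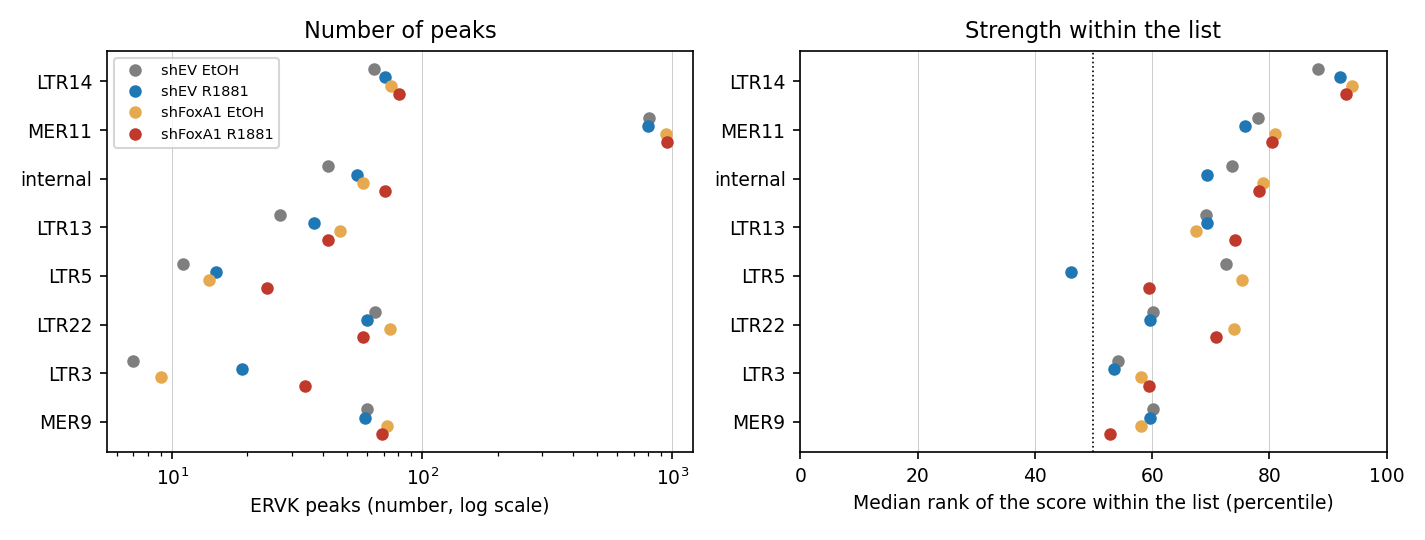
Number of ERVK peaks in each name group (left, log scale) and the median rank of their scores within the list (right, percentile; dotted line at the middle of the list), 1 point per library. MER11 has by far the most peaks, and LTR14 has the highest median in each of the 4 lists.

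The highest-scoring ERVK sites were common to all libraries. The 5 highest-scoring ERVK peaks of each list came from 11 regions, 7 of them LTR14 and 4 MER11, and each of the 11 had a peak in all 4 lists. Strong peaks outside ERVK recurred as well. In the highest score band, 85.2 to 98.4% of the other peaks of a list were overlapped in any single other list. The all-list share of other peaks as strong as these was not computed, so the count shows nothing particular to ERVK. A peak takes the annotation at its centre, so the same site can be ERVK in 1 list and flanking sequence in another: 5 of the 11 had an ERVK peak in every list, 1 of them LTR14. Among all ERVK regions a peak of another annotation was present in 28 of 91 LTR14 regions (30.8%) but in 24 of 1138 MER11 regions (2.11%). The highest-scoring region was an intergenic LTR14B about 10.4 kb upstream of GALR1, a galanin receptor gene (chr18:77238321-77241171), with scores of 2570, 2741, 3397 and 4056 in shEV EtOH, shEV R1881, shFoxA1 EtOH and shFoxA1 R1881, the highest over all peaks of the region; both shFoxA1 peaks were annotated as plain intergenic sequence. An LTR14B upstream of MKI67, which encodes the proliferation antigen Ki-67, had 1845, 1823, 1934 and 1648 (chr10:128173567-128176161), with an LTR14B annotation in shEV R1881 and shFoxA1 EtOH. An LTR14A near PLAC9 had 1518, 1269, 1989 and 1648, and its top peak was ERVK in shFoxA1 EtOH alone. These LTR14 sites stood near the top of every list, whichever annotation their peak received. Among MER11B sites, the one near the pancreatic polypeptide pseudogene PPY2P had 1290, 1201, 1642 and 1666, and the one nearest to IGFBP3, an insulin-like growth factor binding protein gene more than 340 kb away, had 1238, 1338, 1696 and 1367. Both were in the top percentile of each list. The remaining 6 were LTR14B near LOC101929479, LCE3A, MIR4438 and GOLGA2P11, MER11B near MIR378D2 and MER11A near CHODL, with scores between 669 and 1847.

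For every other name group, the region with the highest mean rank was picked among those with a peak in all 4 lists. Presence in every list and a high rank are therefore how these sites were chosen, not findings about them. The MER9 site with the highest mean rank was a MER9B in an intron and nearest to the zinc-finger gene ZNF480, with 715, 743, 924 and 669, where every peak but that of shFoxA1 EtOH was annotated to the internal part HERVK9-int. For LTR5 it was an LTR5_Hs near AZIN2, an antizyme inhibitor gene, with 684, 621, 782 and 997. For LTR22 it was an LTR22C0 with 506, 288, 415 and 306. It lay in intron 18 of 26 of a neighbouring gene, and the nearest start was that of the aldehyde dehydrogenase gene ALDH3A1. The high ranks of these sites follow from that choice. For LTR13 it was a site near LY6K, with 367, 759, 705 and 949. For LTR3 it was an LTR3A near ZNF350, with 435, 393, 860 and 791, of which the shEV EtOH peak was annotated to an MLT1F2 repeat, and for internal parts a HERVK9-int near DIP2B, with 920, 1066, 1273 and 1315.

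A larger share of ERVK regions than of all regions had a peak in every list. When peaks of the 4 lists were merged into regions, 1654 of 61118 were ERVK, and 835 of them (50.5%, 48.1 to 52.9) had a peak in all 4 lists, against 19.0% of all regions. The share was 33.4% for ERV1 and 27.9% for ERVL and MaLR. A peak in a single list was found for 21.4% of ERVK regions, against 48.1% of all. By group, all 4 lists had a peak in 66 of 91 LTR14 regions (72.5%) and 631 of 1138 MER11 regions (55.4%), and among the MER11 names in 64.3% of MER11B, 60.8% of MER11A, 43.0% of MER11C and 41.8% of MER11D regions. LTR3 was lowest, with 6 of 39 regions (15.4%).

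**Figure D3:**
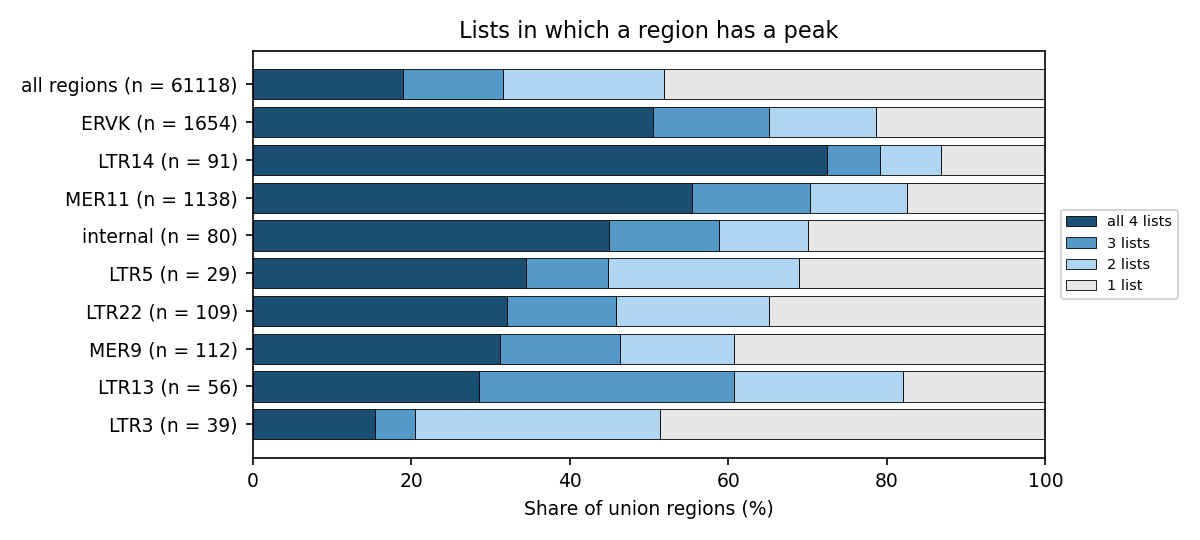
Share of merged regions with a peak in 1, 2, 3 or all 4 lists (stacked bars, percent), for all regions, ERVK regions and each ERVK name group, with the number of regions in brackets. The all-list part is 50.5% for ERVK, 72.5% for LTR14 and 15.4% for LTR3, against 19.0% for all regions.

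Strong peaks are called in a second list more easily than weak ones, so the overlap was also read within score bands. Between any 2 lists, 72.1 to 90.1% of ERVK peaks were overlapped by at least 1 bp, against 42.3 to 71.3% of the other peaks. Within the highest-scoring 20% the shares were 94.8 to 99.8% for ERVK and 85.2 to 98.4% for the others. The ERVK share was the higher one in each of the 12 ordered pairs of lists, in all peaks and in the highest-scoring 20%.

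With R1881, a smaller share of ERVK peaks than of all peaks was gained or lost, and the 2 directions were nearly balanced. In shEV, 221 of 1118 ERVK peaks of the R1881 list had no overlap in the EtOH list and are called gained (19.8%; 45.0% of all peaks), and 197 of 1085 EtOH peaks had none in the R1881 list and are called lost (18.2%; 42.6% of all). In shFoxA1, 251 of 1329 were gained (18.9%; 44.5% of all) and 201 of 1296 lost (15.5%; 37.5% of all). The terms gained and lost compare calls made against a threshold and do not measure a change of binding. Of ERV1 peaks, 24.9% were gained and 31.8% lost in shEV, and 30.5 and 31.1% in shFoxA1. For ERVL and MaLR the shares were 35.8 and 33.4%, and 37.3 and 30.7%. Both families were thus also below all peaks, and ERVK was lowest. Gained peaks made up 52.9% of the ERVK peaks gained or lost in shEV and 55.5% in shFoxA1, close to the 52.5 and 57.2% of all peaks. This balance depended on the list length. Among the 10000 highest-scoring peaks of each list it was 42.9% in shEV and 45.6% in shFoxA1, and with lists of equal length it was 48.3% in shFoxA1.

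The smaller ERVK shares were seen at matched score as well, where ERV1 and ERVL and MaLR were counted among the other peaks and not matched separately. When the other peaks were weighted to the 5 score bands of the ERVK peaks, 32.1% of them would be gained and 26.9% lost in shEV, and 28.6 and 21.1% in shFoxA1, above the ERVK shares in each case. In the highest-scoring 20%, 4 of 473 ERVK peaks were gained and 2 of 485 lost in shEV (0.846 and 0.412%), against 11.3 and 4.82% of the other peaks. In the lowest 20%, 65.2% of ERVK peaks were gained (53.4 to 75.4) and 68.9% lost (57.7 to 78.3) in shEV, intervals that include the 72.6 and 74.8% of the other peaks. The gap between ERVK and the other peaks in shEV was thus clear in the strongest peaks and not detectable in the weakest.

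The name groups did not share one balance. LTR3 was the group with the largest gained share: in shEV, 13 LTR3 peaks were gained and 2 lost (86.7% gained, 62.1 to 96.3), and in shFoxA1, 26 were gained and 2 lost (92.9%, 77.4 to 98.0), against 52.5 and 57.2% of all peaks. LTR3 was singled out after these values were seen, and the groups are small. A peak of any annotation in the other list counted as overlap, so a shift of annotation alone does not make a peak gained or lost. LTR5 had 5 gained and 1 lost in shEV and 11 and 2 in shFoxA1, LTR14 had 7 and 2 and then 13 and 4 (10000 highest: 20% gained in shEV and 53.8% in shFoxA1), and internal parts had 18 and 6 and then 19 and 6. LTR22 went the other way, with 15 gained and 22 lost in shEV and 15 and 27 in shFoxA1. MER9 had 17 and 17 in shEV and 23 and 18 in shFoxA1, where it turned to 30% gained among the 10000 highest. MER11 was near balance, with 127 gained and 138 lost in shEV and 136 and 131 in shFoxA1, where it turned to 46.2% gained (10000 highest) and 43.6% (equal length). Within MER11, MER11C had 44 gained and 51 lost in shEV but 57 and 31 in shFoxA1. LTR13 had 19 and 9 in shEV but 8 and 11 in shFoxA1. Whether these 2 responses differed between the hairpins was not tested.

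**Figure D4:**
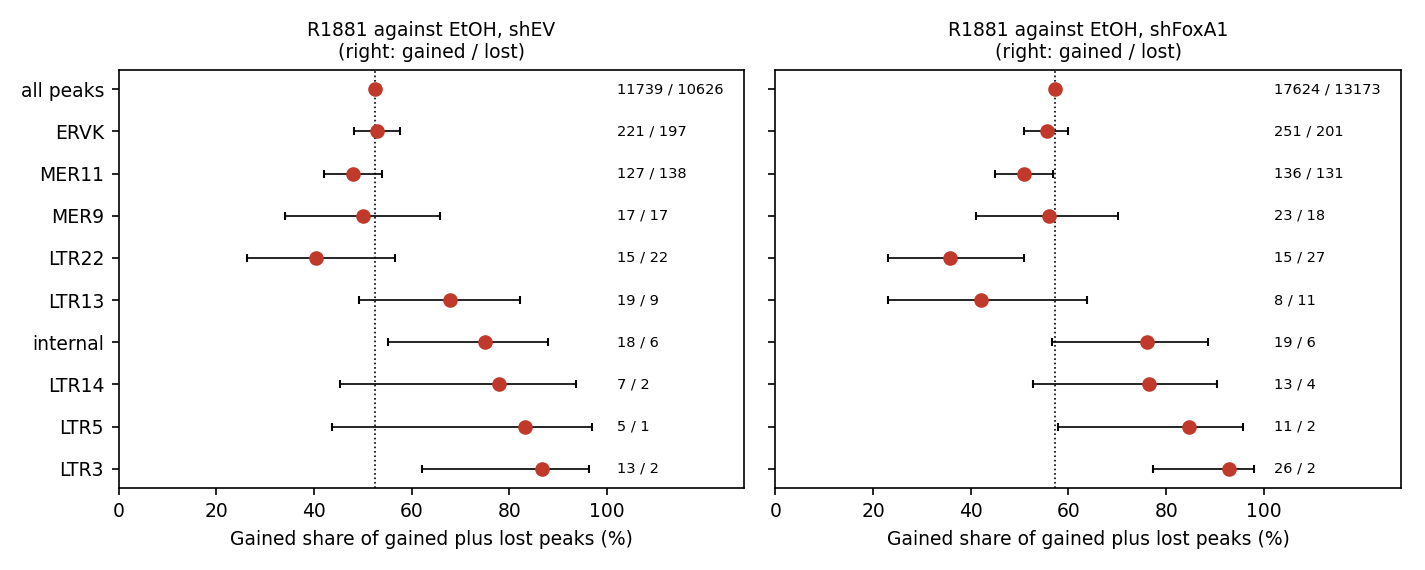
Gained peaks as a share of the peaks gained or lost with R1881 (percent, points with 95% Wilson intervals that cover counting error only), for all peaks, ERVK peaks and each ERVK name group, in shEV (left) and shFoxA1 (right). The dotted line is the share of all peaks, 52.5 and 57.2%. The LTR3 intervals lie above it in both panels and the LTR22 point lies below it in both.

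LTR3 peaks were still gained more often than lost with shorter lists, but few were left among the strongest peaks. With lists of equal length, 12 LTR3 peaks were gained and 2 lost in shEV and 15 and 2 in shFoxA1. Among the 10000 highest-scoring peaks of each list, 4 were gained and 1 lost with either hairpin (80.0% gained, 37.6 to 96.4). That interval includes an even balance. Most of the LTR3 peaks that appeared with R1881 were thus of middle or low score.

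Region by region, 26 of the 39 LTR3 regions (66.7%) had peaks in R1881 lists only, against 32.2% of all regions and 15% of ERVK regions. Of these, 10 were in both R1881 lists (25.6%, against 5.27% of all regions), 14 in shFoxA1 R1881 alone and 2 in shEV R1881 alone. Of all 61118 regions, 12017 were in shFoxA1 R1881 alone and 4418 in shEV R1881 alone. In both EtOH lists only there were 0 LTR3 regions, against 3.21% of all regions. The 10 regions in both R1881 lists had scores of 42 to 202 (median 71.5) in shEV R1881 and 34 to 384 (median 92.5) in shFoxA1 R1881. The 14 in shFoxA1 R1881 alone, the longest list, had scores of 20 to 102 (median 41.5). The regions found in both R1881 lists were therefore on the whole the stronger ones.

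The strongest of the 10 in shEV R1881 was an LTR3B in intron 2 of 4 of UGDH-AS1 (chr4:39543733-39544491), the antisense transcript of the UDP-glucose dehydrogenase gene, with no EtOH peak and scores of 202 and 269 in shEV R1881 and shFoxA1 R1881. An intergenic LTR3B near LINC01012 (chr6:27633194-27633787) had 67 and 384, and one nearest to LOC100506474 (chr2:13682747-13683196) had 104 and 281. An LTR3B_ nearest to LINC00882, 561548 bp away, had 135 and 175, the first annotated to an AluSc repeat. None of these 4 had an EtOH peak. Scores of different lists are not on a common scale, so the 2 values of a site show no change between hairpins. The other 6 lay near ZNF689 (114 and 41), DHRS4L1 (76 and 74), the histone gene HIST1H4H (42 and 83), ACSM4 (50 and 102), CCDC175 (50 and 74) and ERVK3-1 (50 and 34). In 6 of the 39 LTR3 regions a peak of 1 or more lists was not annotated ERVK. By subname, 6 of 6 LTR3B peaks in shEV R1881 and 10 of 10 in shFoxA1 R1881 had no overlap in the EtOH list of the same hairpin. The counts were 4 of 5 and 8 of 9 for the name LTR3 itself, 3 of 5 and 5 of 9 for LTR3B_, and 0 of 3 and 3 of 6 for LTR3A. Of all peaks, 45.0 and 44.5% had no such overlap.

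The 6 LTR3 regions in all 4 lists were mostly stronger. They lay near ZNF350 (scores above), ZNF773 (314, 300, 348 and 332), EPB41L2 (354, 168, 456 and 345), GINS1 (263, 250, 297 and 244), ZNF610 (67, 50, 144 and 112) and CPSF6 (85, 34, 84 and 83). LTR3 regions also differed in place. Of the 39, 10 were on chromosome 19 (25.6%) and 8 had a zinc-finger gene as nearest gene (20.5%), against 4.05 and 3.26% of ERVK regions. The 2 facts overlap, since chromosome 19 holds the large clusters of these genes. Other small groups leaned the same way, with 12.5 and 5.36% for LTR13 and 6.90 and 13.8% for LTR5. MER11, which holds most ERVK regions, had 2.11 and 1.85%. Shares over all regions are not given here. The peaks lost with R1881 were at ZNF841 and LINC02720 in shEV and at PTPRF and OR1I1 in shFoxA1.

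**Figure D5:**
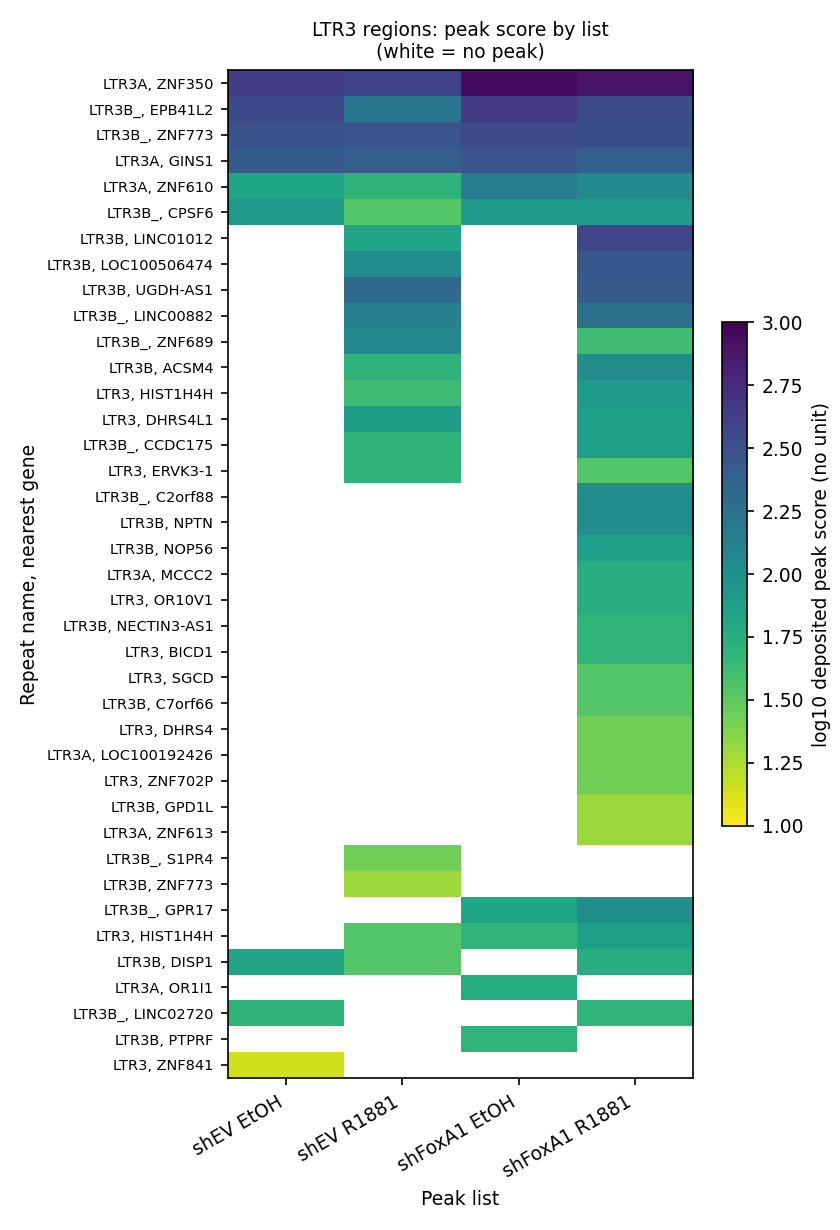
Deposited peak score (log10 colour scale, no unit) of the 39 LTR3 regions (rows, by repeat name and nearest gene) in the 4 peak lists (columns); white means no peak. The first 6 rows have a peak in every list, the next 10 in both R1881 lists and no EtOH list, and the next 14 in shFoxA1 R1881 alone.

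Of the 29 LTR5 regions, 12 (41.4%) had peaks in R1881 lists only, against 32.2% of all regions, and 10 (34.5%) were in all 4 lists, against 19.0% of all. An LTR5B near KYAT1 was absent from both EtOH lists and had 50 in shEV R1881, where it was annotated HERVK-int, and 186 in shFoxA1 R1881. The others in both R1881 lists lay near ABHD11 (58 and 57), C16orf54 (34 and 41) and DEFB115 (42 and 34). An LTR5_Hs near LINC02614 was in every list with 276, 562, 429 and 714.

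Of the 109 LTR22 regions, 32 (29.4%) had peaks in EtOH lists only, against 24.5% of all regions and 12% of ERVK regions. In both EtOH lists only there were 7 (6.42%, against 3.21% of all regions). They lay near LARS2 (115 in shEV EtOH and 42 in shFoxA1 EtOH), ASB14 (27 and 34), TTC29 (27 and 34), ASCC3 (58 and 84), LINC00566 (42 and 49), LINC01467 (50 and 84) and SCARNA17 (50 and 21); the shFoxA1 EtOH peaks of the last 2 were not annotated ERVK. All but the LARS2 peak in shEV EtOH had scores below 100.

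The strongest single gained and lost sites came from several names. An LTR22A in intron 2 of 9 of FBXO31, which encodes an F-box ubiquitin ligase subunit (chr16:87379195-87379994), had no peak in shEV EtOH and scores of 379, 75 and 714 in shEV R1881, shFoxA1 EtOH and shFoxA1 R1881. It was missing from shEV EtOH alone. A MER11A about 12.4 kb upstream of TDO2, which encodes tryptophan dioxygenase, had no EtOH peak and 95 and 319 in shEV R1881 and shFoxA1 R1881. A MER11C near LINC02067 had no shEV EtOH peak and 157, 103 and 244. A HERVK13-int near RNU2-1 had a peak in shFoxA1 R1881 alone, with 269.

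Among lost sites, an LTR22A about 8.4 kb upstream of ZNF91, a KRAB zinc-finger gene, had 301 in shEV EtOH, no peak in shEV R1881, 429 in shFoxA1 EtOH and 164, annotated as a non-coding exon, in shFoxA1 R1881. An LTR22A near LINC02494 had 239, no peak, 322 and 112. Both were present in each EtOH list and missing only from shEV R1881. A MER11B nearest to EDA2R, an ectodysplasin receptor gene, had 136 in shEV EtOH, 188 in shFoxA1 EtOH and no R1881 peak, and a HERVK11-int near LONRF2 likewise had 76 and 284. An LTR22C0 nearest to SH3YL1 had 50, 168 and 200 and no peak in shFoxA1 R1881.

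Across all ERVK regions, the peak calls with R1881 tended to go the same way with both hairpins. The question was put over regions with a peak in exactly 1 list of each hairpin: 50 were in both R1881 lists, 42 in both EtOH lists, and 27 and 20 in an R1881 list with 1 hairpin and an EtOH list with the other. The odds ratio was 3.89 (1.91 to 7.90), against 4.45 (4.04 to 4.91) for all regions, so the ERVK value was near that of all regions. These intervals cover counting error over regions only, because each group has 1 library, and the calls do not measure a change of binding. For MER11 it was 2.27 (0.926 to 5.58), an interval that includes 1.

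With the FoxA1 hairpin more ERVK peaks were gained than lost, in a ratio near that of all peaks, while the shares of ERVK peaks gained and lost were smaller. In EtOH, 305 of 1296 shFoxA1 peaks were gained (23.5%; 49.2% of all) and 110 of 1085 shEV peaks lost (10.1%; 28.0% of all). In R1881, 329 of 1329 were gained (24.8%; 52.8% of all) and 111 of 1118 lost (9.93%; 27.9% of all). ERV1 was also below all peaks, with 33.8% gained and 19.3% lost in EtOH and 39.0 and 19.1% in R1881. So was ERVL and MaLR, with 39.5 and 20.6%, and 43.8 and 21.8%. The other peaks, weighted to the score bands of the ERVK peaks, would be gained in 28.5% and lost in 16.3% in EtOH, and in 32.4 and 17.1% in R1881, each above the ERVK share. Gained peaks were 73.5 and 74.8% of those gained or lost, against 71.2 and 74.2% of all peaks. The shFoxA1 lists were longer, and with lists of equal length the shares were 61.6 and 57.6%. Each of these comparisons uses a library that the R1881 comparisons also use, so they are only set side by side.

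MER11D had 23 peaks gained and 3 lost in EtOH and again 23 and 3 in R1881 (88.5%, 71.0 to 96.0, each), an interval that includes the 71.2 and 74.2% of all peaks. With lists of equal length there were 14 gained and 5 lost in EtOH and 15 and 4 in R1881, and among the 10000 highest 8 and 8 and then 13 and 3. Of its 67 regions, 11 (16.4%) were in both shFoxA1 lists and no shEV list, against 6.91% of all regions and 4.17% of ERVK regions. The strongest was an intergenic MER11D nearest to CBLB, a ubiquitin ligase gene (chr3:106360637-106361727), with 211 in shFoxA1 EtOH and 153 in shFoxA1 R1881. The one nearest to LINC01287, 167018 bp away, had 123 and 112, and the other 9 had scores of at most 103. MER11 as a whole had 203 gained and 67 lost in EtOH and 216 and 62 in R1881 (75.2 and 77.7% gained), with intervals that include the shares of all peaks.

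In the other groups, LTR13 had 22 gained and 4 lost in EtOH and 10 and 6 in R1881, LTR14 had 8 and 1 and then 13 and 2, and LTR3 had 5 and 3 and then 16 and 2. The gained shares in EtOH and R1881 were 84.6 and 62.5% for LTR13, 88.9 and 86.7% for LTR14 and 62.5 and 88.9% for LTR3. Their intervals all include the 71.2 and 74.2% of all peaks. In R1881 the LTR3 numbers fell to 7 and 3 with lists of equal length and to 1 and 1 among the 10000 highest. LTR22 was nearly even, with 23 and 18 and then 16 and 15 (56.1%, 41.0 to 70.1, and 51.6%, 34.8 to 68.0), below the shares of all peaks. With lists of equal length it turned, to 47.5 and 40.6% gained. Single sites included a MER11A in intron 20 of 34 of a neighbouring gene and nearest to GAD2, a glutamate decarboxylase gene, with no shEV EtOH peak and 50, 223 and 132 in shEV R1881, shFoxA1 EtOH and shFoxA1 R1881. A MER11C in intron 3 of 4 of RGS18, a regulator of G protein signalling (chr1:192164676-192165480), had 105, no peak, 348 and 209. An LTR13 nearest to METTL4 had 42, no peak, 144 and 281. A MER11C nearest to LOC105374704 was lost in EtOH, with 158 and 104 in the shEV lists, no peak in shFoxA1 EtOH and 65 in shFoxA1 R1881. For the knockdown, the odds ratio of the same direction in EtOH and R1881 was 1.92 (0.858 to 4.28), against 1.76 (1.56 to 1.98) for all regions. Both intervals cover counting error over regions only.

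The gene lists of androgen response, luminal transcription factors, the mTOR pathway and retroviral silencing were read for ERVK peaks near their starts. Of 29 androgen-induced genes, 2 had an ERVK peak within 50 kb of the start in any list, although 17, 25, 22 and 26 had a peak of some kind. Of these, an LTR5_Hs in intron 1 of 20 of the efflux transporter gene ABCC4 had a peak in shFoxA1 R1881 alone, with 74. Of 10 androgen-repressed genes, 1 had an ERVK peak: a MER11B about 18 kb upstream of DDC, the aromatic amino acid decarboxylase gene (chr7:50582927-50584007), with 840, 490, 1022 and 1096. This DDC site was strong in all 4 lists. In shEV EtOH, shEV R1881, shFoxA1 EtOH and shFoxA1 R1881, ERVK peaks were 0, 1.89, 2.17 and 2.33% of the peaks at the induced genes and 4.35, 4.17, 2.70 and 2.78% at the repressed genes, against 3.84, 3.92, 3.06 and 2.87% of all peaks within 50 kb of a start. Each of these shares rests on 2 ERVK peaks or fewer, so a difference from all peaks was not detectable. Of 12 luminal transcription factor genes, 0 had one.

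Of 16 mTOR pathway genes, 1 had an ERVK peak, EIF4EBP1, which encodes the translational repressor 4E-BP1 that mTOR phosphorylates. Its MER11A, about 8 kb upstream (chr8:38021997-38023196), had 251, 352, 322 and 371. Of 16 silencing genes, ZNF91 was the only one, with the LTR22A described above and a MER11A that had 75 in shFoxA1 EtOH, 34 in shFoxA1 R1881 and no shEV peak. ERVK peaks were 6.67, 7.14, 3.70 and 3.70% of the peaks at mTOR pathway genes, 1 peak in each list, and 4.76, 0, 8.33 and 3.70% of those at silencing genes, 2 peaks or fewer in each. Among genes with a ZNF symbol, 28, 33, 33 and 39 had an ERVK peak, of 367, 377, 420 and 424 with any peak. ERVK peaks were 4.51, 4.99, 4.11 and 4.44% of the peaks at those genes, against 3.84, 3.92, 3.06 and 2.87% of all peaks within 50 kb of a start.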

How the data were processed

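Peak lists of 4 mTOR chromatin immunoprecipitation libraries were used, and the 4 input libraries were not. The genome build was hg38 per the submitters' processing notes, which also list deepTools 3.5.0, HOMER 4.11.1, MACS2, Picard 2.0.1, BWA 0.7.12 and Trimmomatic 0.36 without a role. Per the file headers, each list is HOMER annotation output, and peaks were called per library. For the caller's threshold and control no entry was found: not given in the sources used here. Each deposited score is the authors' value per peak and was used only within a list; how the authors computed it is not given. GC and CpG were deposited as a fraction of the peak's bases and printed as percent.

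Annotation, nearest gene and distance were taken as deposited. A gene named beside a site is the one with the nearest start, at any distance. Overlap meant at least 1 bp with a peak of any annotation. Overlapping peaks were merged into regions; a region was ERVK when at least 50% of its peaks were, and took its name from its highest-ranked ERVK peak. Shares carry Wilson 95% intervals. With 1 library per group no test was run. Overlap, merging and intervals were tested on simulated data. Named sites were, per list, its 5 peaks with the highest scores, the 5 highest-scoring gained and lost peaks of each comparison, the leading region of each name group and peaks within 50 kb of listed genes; others named in the text were chosen after their values were seen. Members, name groups and gene lists were chosen with earlier results of these data known. Of 30 planned androgen-induced symbols, older ones were matched through RefSeq, leaving 29 genes. The ERVK site of 1 listed gene is not reported here. The planned search of letters in ERVK peaks needs a genome and was not run. Python 3.11.15, pandas 2.3.3, numpy 2.4.6, scipy 1.17.1 and matplotlib 3.10.9 were used. Alternatives were lists of the 10000 highest-scoring peaks, lists cut by score to equal length, 50% overlap and merging by centres within 300 bp.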

Additional observations from a re-analysis of the deposited data

Results flagged for a closer look

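The response of 2 name groups to R1881 had opposite signs with the 2 hairpins. Gained minus lost MER11 peaks came to -11 in shEV and 5 in shFoxA1, and gained minus lost LTR13 peaks to 10 in shEV and -3 in shFoxA1. With shorter lists the MER11 signs were alike: the gained share was 39.9% in shEV and 46.2% in shFoxA1 among the 10000 highest-scoring peaks, and 46.8 and 43.6% with lists of equal length. For LTR13 the gained share under these 2 settings was 72.7 and 50%, and 67.9 and 41.2%. Neither difference between hairpins was tested, since each rests on 1 library per group.

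In shFoxA1 R1881, 4 ERVK peaks were among the 538 peaks on sequences other than chromosomes 1 to 22, X and Y. The shEV EtOH, shEV R1881 and shFoxA1 EtOH lists had 2, 2 and 3 such ERVK peaks. None of these peaks entered a comparison.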

How the results depend on the processing

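No paired analysis was possible because each group has 1 library, and for the same reason no replicate could be left out. Of 290 alternative values, 61 for the main results stayed within their counting interval, 38 moved and 3 turned, and for single name groups 152 stayed, 26 moved and 10 turned. In lists of the 10000 highest-scoring peaks, the ERVK share was 7.40, 7.15, 7.80 and 7.51% in shEV EtOH, shEV R1881, shFoxA1 EtOH and shFoxA1 R1881, and the MER11 share of ERVK peaks 77.4, 75 and 75.6% in shEV EtOH, shEV R1881 and shFoxA1 R1881; with lists of equal length the ERVK share was 4.73 and 4.63% in the shFoxA1 lists. In the highest-scoring 10% it was 10.8, 10.6, 11.4 and 10.1%. The gained share of ERVK peaks with R1881 turned to 42.9% in shEV and 45.6% in shFoxA1 (10000 highest), and to 48.3% in shFoxA1 (equal length). For the knockdown it became 56.6 and 58.8% (10000 highest) and 61.6 and 57.6% (equal length) in EtOH and R1881. Single groups turned as follows: LTR22 in the knockdown to 47.5% in EtOH (equal length) and 33.3 and 40.6% in R1881 (10000 highest, equal length), LTR5 to 40.0% in R1881 (equal length), LTR14 with R1881 in shEV to 20%, MER9 with R1881 in shFoxA1 to 30% and in the knockdown to 38.5 and 40.0% (all 10000 highest), and MER11 with R1881 in shFoxA1 to 46.2 and 43.6% (10000 highest, equal length). Overlap of ERVK peaks among the 10000 highest was 86.2 and 82.3% of shEV EtOH with shFoxA1 EtOH and shFoxA1 R1881, 84.8 and 85.2% of shEV R1881 with shEV EtOH and shFoxA1 R1881, 82.9 and 78.7% of shFoxA1 EtOH with shEV EtOH and shEV R1881, and 81.4, 79.9 and 84.8% of shFoxA1 R1881 with shEV EtOH, shEV R1881 and shFoxA1 EtOH. With equal lengths it was 87.3 and 83.7% of shEV EtOH with both shFoxA1 lists, 86.0 and 85.4% of shEV R1881 with the same, 81.3 and 80.4% of shFoxA1 EtOH with both shEV lists, and 78.5, 81.1 and 85.0% of shFoxA1 R1881. The share of ERVK regions in all 4 lists was 47.8% with centres within 300 bp, 53.7% (10000 highest) and 53.3% (equal length). The cause was not tested. The LTR3 and MER11D values under these settings, and finer score bins for the weighting, were added after seeing the data; with 20 bins the other peaks would be gained in 31.3 and 27.6% with R1881 in shEV and shFoxA1. Library depth is unknown, so a missing peak may lie below the threshold.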
